A study of Mus musculus with 3 samples.

Results

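Among the small intestinal cells of 3 groups of mice, 756 of 12653 cells had the highest summed values of 6 genes taken here as markers of early enterocyte progenitors: Gsdmc2, Gsdmc4, Akr1c19, Rbp7, Dmbt1 and Krt19. They are called members below. Cells rich in Paneth cell defensins (1500 or more UMIs per 10000 over the Defa genes) or in the goblet gene Agr2 (30 or more) were left out beforehand. A UMI is a molecular tag that marks 1 captured RNA molecule. In each library the top 8% of the remaining eligible cells by the sum of the deposited log values of the 6 genes were taken. AOS 0 gave 250 members of 3124 eligible cells, B + A 0 gave 176 of 2200 and B + A 10 gave 330 of 4119. Where 3 values are listed below without further labels, they are those of AOS 0, then B + A 0, then B + A 10. Since measured values chose them, the levels of the 6 genes in members are a description and support nothing.

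The cells came from the small intestine of male ICR mice, an outbred strain, that were 3 weeks old at the start. Mice of the AOS 0 group were the controls and were given the vehicle. Mice of B + A 0 had a single injection of busulfan, an alkylating drug used before bone marrow transplantation, and mice of B + A 10 had busulfan and alginate oligosaccharides (AOS) at 10 mg/kg by gavage for 2 weeks. According to the methods, Peyer's patches were removed, the epithelium was dissociated, and the cells of 6 mice of a group were combined into 1 droplet library. With 1 library per group no test of a treatment was possible, mice could not be told apart, and all intervals below are 95% intervals for counting error only. The title, the description and the treatment of each sample gave the groups, but the source name of both busulfan libraries names another group.

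The libraries held 4106, 3195 and 5352 cells with 35258551, 26044381 and 23003083 UMIs. Members had a median of 8919.5, 6922.5 and 4130 UMIs, and the other eligible cells 6884, 6001 and 3302. Between 17 and 34 cell barcodes were shared by each pair of libraries, and 0 of them belonged to members in both. A doublet score put 2.40%, 2.84% and 3.03% of members among its top 5% of cells, against 3.03%, 2.96% and 4.25% of the other eligible cells. Of 12 T cell markers the data held 11, and at least 4 were detected in 7, 29 and 31 members. In the whole libraries this held for 183, 604 and 547 cells. These members were kept in all settings that did not change the score or the share taken, except where called as doublets.

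The lining of the small intestine renews itself from stem cells at the crypt base. Their daughters divide in the crypt as transit amplifying cells, and those that become enterocytes stop dividing, climb onto the villus and take up, step by step, the machinery for digestion and absorption. Gasdermins are proteins that can open pores in membranes once they are cleaved, and the Gsdmc branch is expressed in epithelia. Dmbt1 is a secreted scavenger receptor of mucosal surfaces that binds bacteria.

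Gsdmc2 (chr15:63824346-63845177, minus strand) and Gsdmc4 (chr15:63891264-63912297, minus strand) are neighbouring copies in the GRCm38 annotation, with Gsdmc3 between them. Akr1c19, an aldo-keto reductase, lies at chr13:4228700-4252843 on the plus strand. Rbp7, a small cytosolic binding protein for retinol, lies at chr4:149449687-149454978 on the minus strand. Dmbt1 lies at chr7:131032053-131121630 on the plus strand, and Krt19, a keratin of simple epithelia, at chr11:100140810-100148665 on the minus strand. Of the stretches of 91 bases in the last 400 bases of a Gsdmc2 transcript, 31 of 310 also occurred in Gsdmc3, 43 of 310 in Gsdmc and 0 in Gsdmc4. Reads that lie wholly within the shared stretches cannot be told apart between Gsdmc2 and Gsdmc3, while Gsdmc4 shared no such stretch with the others. The length of 91 bases was a setting of the search. The methods give longer reads, which can run past a shared stretch. How such reads were counted was not examined.

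The promoters of Akr1c19 and Rbp7 are shown because, of the 6 genes, they were the 2 with an entry in the promoter table used. Promoters of Gsdmc2, Gsdmc4, Dmbt1 and Krt19 were not analysed here. Each is the stretch of 230 bases that begins 250 bases before the RefSeq start (GRCm38.p6) and leaves out the 20 bases next to it, 5′ to 3′ on the gene's strand, with matches to searched motifs in capitals. Akr1c19 is shown from chr13:4233490-4233719, inside the longer GENCODE gene, with AGATAA in capitals, which reads TTATCT where it lies on the other strand. Rbp7 is shown from chr4:149454989-149455218, directly before the GENCODE gene, with CCGCCC in capitals.
Akr1c19: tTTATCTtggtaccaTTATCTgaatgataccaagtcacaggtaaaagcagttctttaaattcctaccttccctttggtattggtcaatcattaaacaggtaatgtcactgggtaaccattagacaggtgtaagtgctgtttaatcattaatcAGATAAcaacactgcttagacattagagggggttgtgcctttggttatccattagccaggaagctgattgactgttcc
Rbp7: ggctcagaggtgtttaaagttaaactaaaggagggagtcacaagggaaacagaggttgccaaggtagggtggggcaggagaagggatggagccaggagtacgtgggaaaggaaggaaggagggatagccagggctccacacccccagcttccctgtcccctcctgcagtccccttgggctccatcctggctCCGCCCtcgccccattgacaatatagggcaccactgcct

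AGATAA, a core that GATA factors bind, occurred 3 times in the Akr1c19 stretch, beginning 249, 235 and 98 bases before the start, and 9.78% of 27025 promoters of the same length held it on either strand. CCGCCC, a GC box bound by KLF and SP factors, began 59 bases before the Rbp7 start, and 29.9% of promoters held it. The other motifs searched on both strands were TTTATGG (2.33% of promoters), TATAAA (12.4%) and CAAAGT (11.7%), and none of them was in either stretch. The bases G and C made up 38.7% of the Akr1c19 stretch and 58.7% of the Rbp7 stretch, and the median over all promoters was 51.7%. A match of letters is a description and not a bound site.

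The members were not alike in which of the 6 genes they carried. Dmbt1 and Krt19 were detected in every member of the 3 libraries, so the other 4 genes set the differences. All 6 genes were detected in 26, 8 and 3 members. Exactly 3 were detected in 10, 36 and 177 members, and the libraries with fewer detected genes were those with fewer UMIs per cell. Both gasdermins were detected in 87, 46 and 39 members, Gsdmc2 without Gsdmc4 in 79, 50 and 94, Gsdmc4 without Gsdmc2 in 23, 17 and 30, and neither in 61, 63 and 167. The summed score of the last member was 8.792, 8.271 and 7.691, and that of the cell just outside was 8.791, 8.269 and 7.687, so the limit cut a continuum.

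Gsdmc2 reached 1.56, 1.32 and 1.27 UMIs per 10000 in members, against 0.149, 0.0963 and 0.0725 in the other eligible cells. Gsdmc4 reached 0.862, 0.720 and 0.581, against 0.0607, 0.0527 and 0.0530. Gsdmc3, which the choice did not use, lay at 0.249, 0.158 and 0.114 in members and at 0.0270, 0.0141 and 0.0168 in the others. All 3 copies were thus higher in members in each library, though the counts of Gsdmc2 and Gsdmc3 may not be fully separate. After each cell had been thinned to 1000 UMIs, Gsdmc2 was detected in 11.6% (7.91 to 16.2), 14.8% (9.88 to 20.9) and 11.5% (8.28 to 15.5) of members. In the other eligible cells it was detected in 1.36%, 0.642% and 0.554%. Cells with at least 4 T cell markers, with medians of 7863, 9109 and 4464 UMIs, gave 0.546%, 0.828% and 0.731%. They were no clean background, since they also held 127, 143 and 84.8 UMIs per 10000 of the Paneth gene Lyz1 and 11.8, 10.7 and 9.40 of Krt19. In the mature villus set Gsdmc2 was detected in 0 of 250, 0 of 176 and 0 of 330 thinned cells, which allowed up to 1.46%, 2.07% and 1.11%. Without thinning, Gsdmc2 was detected in 66.4%, 54.5% and 40.3% of members and in 8.74%, 9.44% and 5.12% of the cells with T cell markers.

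Akr1c19 lay at 2.21, 1.87 and 1.47 UMIs per 10000 in members, against 0.578, 0.396 and 0.203 in the other eligible cells. Rbp7 lay at 1.19, 1.14 and 1.24, against 0.276, 0.245 and 0.178. Dmbt1 lay at 19.7, 21.3 and 23.6, against 10.1, 9.49 and 8.90, and Krt19 at 49.9, 41.6 and 33.3, against 21.8, 18.2 and 15.5. Dmbt1 and Krt19 were expressed in most eligible cells and ranged widely between single members. Dmbt1 ranged from 2.10 to 45.8 over the members of AOS 0, from 2.90 to 89.7 over those of B + A 0 and from 4.12 to 72.7 over those of B + A 10. The lowest Krt19 values in single members were 15.0, 14.2 and 4.17, and the highest 125, 93.5 and 80.0.

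To place the members, the eligible cells of each library were ranked from crypt to villus without the 6 genes. The rank used the mean log value of brush border, fat absorption and nutrient transporter genes minus that of stem cell, S phase and mitosis genes. On a scale from 0 at the crypt end to 100 at the villus end, the median rank of members was 43.6 (42.6 to 45.0), 43.6 (42.4 to 45.3) and 40.0 (38.9 to 41.1). The members thus lay near the middle of the order in all 3 libraries. A rank is relative to the eligible cells of its own library, so the ranks were not compared between libraries. Sets of as many cells, chosen in each library by stem cell genes (Olfm4, Lgr5, Ascl2, Slc12a2, Smoc2 and Axin2), had median ranks of 8.99, 10.95 and 8.15. A mid villus set chosen by Ms4a18 and Il18 had median ranks of 70.6, 70.3 and 65.7, and a mature villus set chosen by Slc5a12 and Enpp7 had 93.4, 93.1 and 91.5. The members shared 0 cells with the crypt stem set, 12, 11 and 20 with the mid villus set, and 1, 0 and 1 with the mature villus set.

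The members were concentrated in a short stretch of the order. In the fifth of 10 equal bins 34.0% (28.7 to 39.5), 36.4% (30.003 to 43.1) and 29.0% (24.6 to 33.6) of the eligible cells were members. Bins 4 to 7 held 225 of 250, 161 of 176 and 271 of 330 members. Bins 1 to 3 at the crypt end held 25, 13 and 55 members, and bins 8 to 10 at the villus end held 0, 2 and 4.

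**Figure D1:**
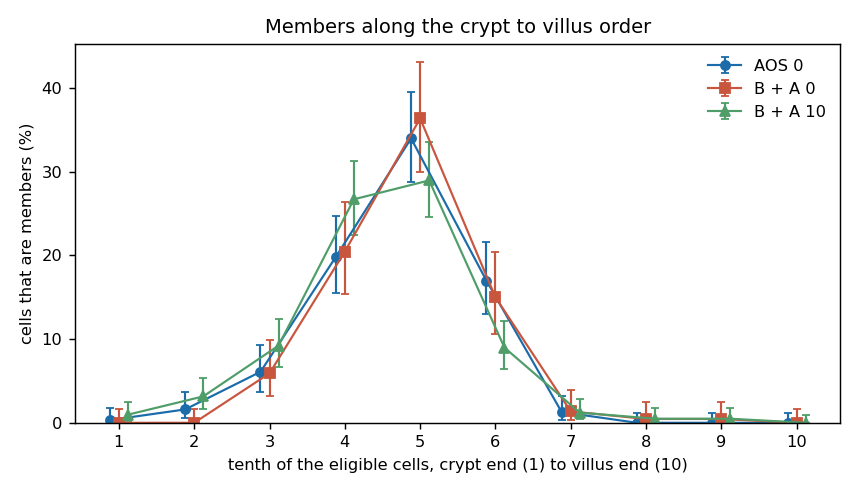
Percentage of eligible cells that were members (y axis) in each of 10 bins from the crypt end to the villus end (x axis), with a line per library and exact 95% binomial intervals for counting error. In all 3 libraries the percentage was highest in bin 5, at 34.0%, 36.4% and 29.0%, and in bins 7 to 10 it was at most 1.36%.

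Over all eligible cells, members or not, the 6 genes had their highest levels close together but not in the same bin. Rbp7 was highest in bin 4 in all 3 libraries, at 0.724, 0.823 and 0.565 UMIs per 10000. Gsdmc2 was highest in bin 5, at 0.940, 0.727 and 0.550, and so was Gsdmc4, at 0.459, 0.363 and 0.336. Gsdmc2 was low at either end, at 0.0487, 0.0302 and 0.0218 in bin 1 and at 0.00643 and 0.0267 in bin 10 of AOS 0 and B + A 0. Rbp7 was already at 0.261, 0.196 and 0.244 in bin 1. Akr1c19 was highest in bin 5, at 1.38, 1.27 and 0.633, and it remained at 0.547, 0.371 and 0.305 in bin 9. Dmbt1 was highest in bin 4 of AOS 0 and B + A 10 and in bin 5 of B + A 0, at 18.2, 18.3 and 18.2, with 6.72, 6.78 and 6.95 already present in bin 1. Krt19 was highest in bin 5, at 44.2, 38.6 and 31.3. In bin 9 Dmbt1 remained at 5.66, 5.11 and 4.71 and Krt19 at 9.22, 10.5 and 7.37. Thus Rbp7 came before the gasdermins, while Akr1c19, Dmbt1 and Krt19 had longer tails towards the villus than the gasdermins.

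**Figure D2:**
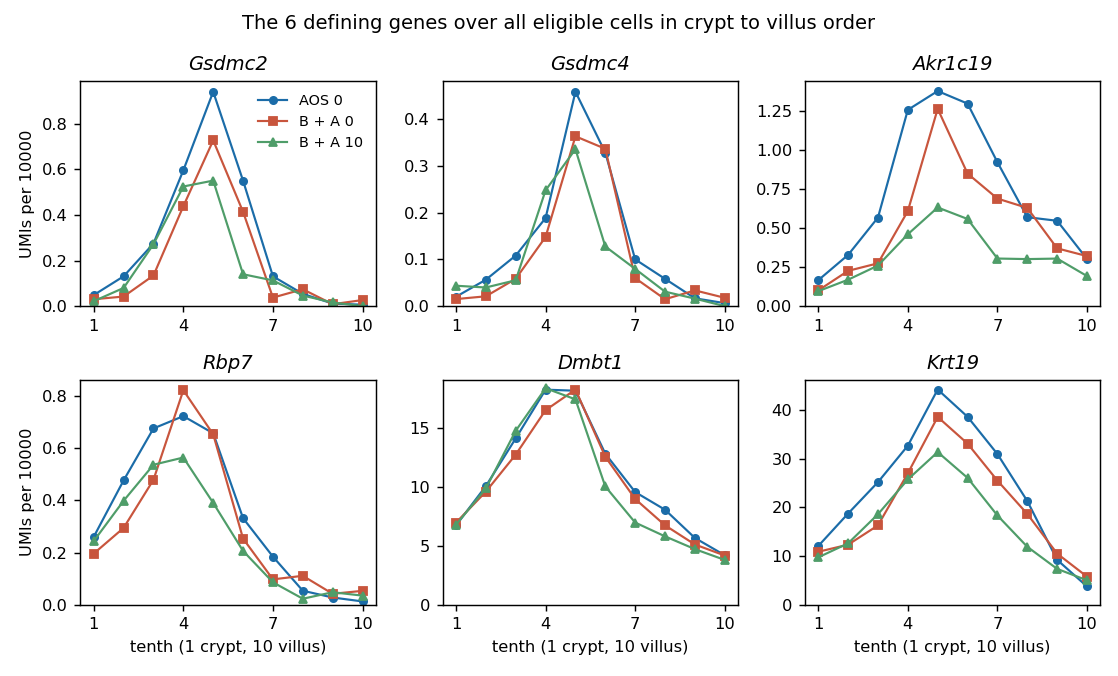
Level in UMIs per 10000 (y axis, each panel with its own scale from 0) of the 6 genes over all eligible cells of each of 10 bins from crypt (1) to villus (10) (x axis), with a line per library. Rbp7 was highest in bin 4 and Gsdmc2, Gsdmc4, Akr1c19 and Krt19 in bin 5 in each library.

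Outside the genes of the choice, few genes were much higher in members than in the other eligible cells and more were much lower. Among 5244 genes with at least 300 UMIs in each library, 8 (0.153%) were 2-fold or more higher in members in 3 of 3 libraries and 150 (2.86%) were 2-fold or more lower. These shares over all counted genes stand beside the list counts given below. The other eligible cells still held enteroendocrine cells and T cells, and genes of those cells were among the lower ones. The 8 higher genes were Gsdmc2, Rbp7, Akr1c19 and Krt19 of the choice, and Duoxa2, S100a16, Bmp3 and Scd2. Gsdmc4 had too few UMIs to be counted, and Dmbt1 had log2 ratios of 0.96, 1.17 and 1.41. In the library where the ratio was nearest to 1, Duoxa2 had a log2 ratio of 1.24, which was 0.75 when cells were thinned to 1000 UMIs before scoring, 0.70 without Gsdmc2 and Gsdmc4 in the score and 0.82 without Dmbt1 and Krt19. Scd2 went from 1.05 to 0.63, 0.40 and 0.80 in these settings and Bmp3 from 1.10 to 0.89 without Gsdmc2 and Gsdmc4, so these 3 were not past 2-fold in every setting.

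Duoxa2, which brings the hydrogen peroxide producing oxidase Duox2 to the cell surface, lay at 1.01, 1.01 and 0.852 UMIs per 10000 in members, against 0.410, 0.428 and 0.311 in the others. Duox2 itself lay at 1.30, 1.65 and 1.60, against 0.880, 0.958 and 0.974. Bmp3, a secreted member of the bone morphogenetic protein family, lay at 0.542, 0.497 and 0.410, against 0.220, 0.207 and 0.192. S100a16 is a calcium binding protein, and its log2 ratios were 1.31, 1.18 and 1.16. Scd2, a desaturase that makes monounsaturated fatty acids, had log2 ratios of 1.07, 1.11 and 1.05. Duoxa2 was at 0.192, 0.186 and 0.144 in cells chosen by stem cell genes and at 0.262, 0.503 and 0.373 in cells chosen as mid villus cells. For Bmp3 these levels were 0.173, 0.121 and 0.116 and then 0.278, 0.279 and 0.297, so both genes were higher in members than in either set. These sets lay well apart from the members in the order, and cells next to the members were not compared.

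Further genes among the 20 with the highest ratios were just under 2-fold. Lgals2, a galectin that binds sugars on glycoproteins, lay at 78.5, 72.9 and 66.9 UMIs per 10000 in members, and at 31.0, 30.2 and 29.97 in the crypt stem set and 35.4, 31.8 and 29.6 in the mid villus set. Pycard, the adaptor of inflammasomes, lay at 31.8, 26.8 and 26.7, with 12.3, 10.8 and 11.8 in the crypt stem set and 19.8, 15.3 and 15.3 in the mid villus set. Both were thus higher in members than in either set. The others were Slc1a1, a glutamate transporter, Acer3, a ceramidase, Ethe1, a mitochondrial enzyme of sulfide breakdown, Car4, a membrane carbonic anhydrase, Frrs1, Mal2, Sh2d4a, Fam107b and Prelid2. Car4 differed from the rest of this group, since it lay at 1.82, 1.67 and 1.52 in members, at 1.90, 1.91 and 1.77 in the mid villus set and at only 0.0444, 0.0968 and 0.103 in the crypt stem set.

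In the list of gasdermins and inflammasome genes, 11 genes could be counted, of which 0 were 2-fold higher and 1, Gsdmd, was 2-fold lower. Gsdmd, the gasdermin that inflammatory caspases cut, lay at 0.395, 0.540 and 0.486 UMIs per 10000 in members and at 1.87, 2.001 and 1.80 in the mid villus set. Il18, a cytokine that inflammasomes activate, lay at 0.490, 0.821 and 0.530 in members, and it was part of the choice of the mid villus set. The adaptor Pycard was thus high where Gsdmd was still low. Casp1 was at 1.91, 1.45 and 1.19 in members and at 1.76, 1.33 and 1.05 in the other eligible cells, and Nlrp6 was at 1.76, 1.87 and 1.87 against 1.58, 1.72 and 1.89. The median log2 ratio of the list was -0.14, -0.08 and -0.25, beside 0.00, 0.00 and 0.02 over all genes counted.

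Stem cell genes were low in members. Of 10 that could be counted, 7 were 2-fold lower than in the other eligible cells and 0 higher, with median log2 ratios of -1.90, -1.99 and -1.62. Olfm4, the most abundant stem cell marker, lay at 0.463, 0.972 and 0.657 UMIs per 10000 in members and at 58.0, 49.7 and 44.0 in the crypt stem set, which it helped to choose. Lgr5, the receptor that defines crypt base stem cells, was represented in members by levels of 0.00791, 0.0144 and 0.00631. Clca3b, another abundant stem cell gene, was less reduced, at 0.664, 0.655 and 0.947 in members against 7.42, 5.96 and 4.79 in the crypt stem set. Sox4 and Cdca7, both genes of the crypt, were among the 10 lowest genes, with log2 ratios of -2.67, -4.28 and -3.66 and of -2.65, -2.56 and -2.68.

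The cell cycle lists were split. Of 18 S phase genes, 8 were 2-fold lower in members and 0 higher, with median log2 ratios of -1.32, -1.02 and -1.03. Of 12 mitosis genes, 0 were past 2-fold in either direction, with medians of -0.31, -0.18 and 0.30. Summed over the list, S phase genes were at 18.6, 18.2 and 18.1 UMIs per 10000 in the crypt stem set and at 4.41, 4.36 and 4.25 in members. Mitosis genes summed to 22.2, 19.9 and 17.5 in the crypt stem set, to 10.0, 9.62 and 10.9 in members and to 1.24, 1.43 and 1.43 in the mid villus set. Hells, a chromatin remodeller of replicating cells, lay at 0.170, 0.180 and 0.158 in members against 1.25, 1.46 and 1.89 in the crypt stem set. Cdc20, which drives the exit from mitosis, lay at 0.846, 0.763 and 0.625 in members against 0.987, 1.02 and 0.772 in the crypt stem set. Members thus had little S phase RNA and about as much Cdc20 as the crypt stem set.

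Absorptive genes were present but far below their villus levels. Of 14 fat absorption genes, 7 were 2-fold lower than in the other eligible cells and 0 higher, as were 10 of 19 brush border and digestion genes and 7 of 20 nutrient transporters. The fat absorption list summed to 40.5, 66.0 and 63.6 UMIs per 10000 in members, to 33.7, 46.5 and 43.0 in the crypt stem set and to 1310, 999 and 921 in the mature villus set. Brush border genes summed to 23.1, 27.5 and 27.2 in members, against 9.53, 11.6 and 11.6 in the crypt stem set and 80.7, 85.4 and 86.8 in the mid villus set. Mttp, which loads lipid onto chylomicrons, lay at 3.16, 3.71 and 3.41 in members, at 0.612, 0.766 and 0.827 in the crypt stem set and at 13.7, 14.5 and 12.01 in the mid villus set. Sis, the sucrase of the brush border, followed the same order with 1.25, 1.35 and 1.26 in members, 0.163, 0.202 and 0.219 in the crypt stem set and 7.497, 6.10 and 5.44 in the mid villus set. By contrast, Slc2a2, a sugar transporter, lay at 0.0119, 0.0648 and 0.0379 in members and Slc15a1, the peptide transporter, at 0.0395, 0.137 and 0.272, which was close to the crypt stem set at 0.0493, 0.153 and 0.171 for Slc15a1. The absorptive genes thus differed in how far members stood above the crypt stem set. With little stem cell RNA, some mitosis RNA and low absorptive RNA, these genes did not go against the name of early enterocyte progenitors.

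**Figure D3:**
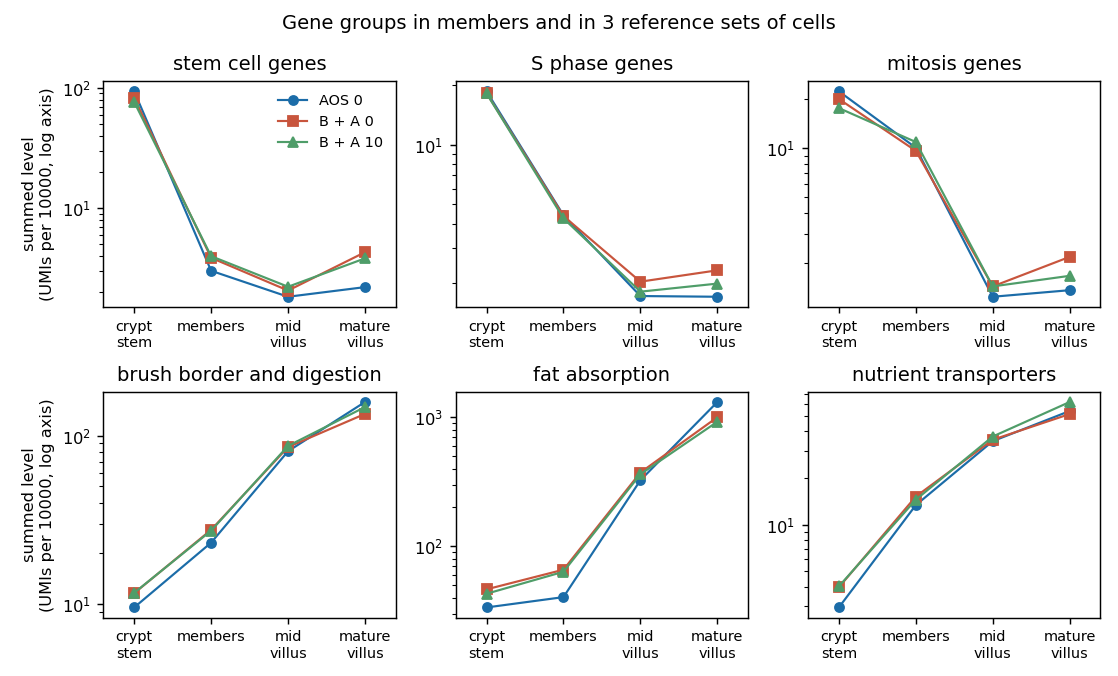
Summed levels of 6 gene lists in UMIs per 10000 (y axis, log scale) in the crypt stem set, members, mid villus set and mature villus set (x axis), with a line per library. Members had 10.0, 9.62 and 10.9 for mitosis genes, between the crypt stem and mid villus sets, while fat absorption genes at 40.5, 66.0 and 63.6 were near the crypt stem set; stem cell genes helped to choose the crypt stem set.

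Transcription factors of enterocytes followed more than 1 pattern. Of 21 counted, 0 were 2-fold higher in members and 4 were 2-fold lower. Klf5, a zinc finger factor of proliferating crypt cells, lay at 3.33, 3.27 and 3.09 UMIs per 10000 in members, against 1.53, 1.63 and 1.72 in the crypt stem set and 2.03, 1.96 and 2.18 in the mid villus set. Hnf4a, a master factor of the intestinal epithelium, was level, at 2.09, 1.79 and 2.01 in members against 2.003, 1.75 and 1.78 in the crypt stem set. Its relative Hnf4g stood between, at 1.85, 1.76 and 1.88 in members, 0.577, 0.637 and 0.608 in the crypt stem set and 4.44, 3.797 and 3.21 in the mid villus set. Creb3l3, a factor of lipid metabolism, lay at 0.372, 0.490 and 0.442 in members against 2.10, 2.21 and 2.26 in the mid villus set.

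Mucosal defence genes were closer to their mid villus levels. Reg3b, an antibacterial lectin, lay at 363, 362 and 289.7 UMIs per 10000 in members, at 46.6, 63.9 and 72.6 in the crypt stem set and at 427, 420.2 and 407 in the mid villus set. Reg3g, a related lectin, lay at 296, 297 and 256 in members and at 43.3, 50.6 and 62.0 in the crypt stem set. Lypd8, which keeps flagellated bacteria off the epithelium, lay at 63.1, 54.6 and 52.8 in members and at 19.4, 15.99 and 17.7 in the crypt stem set. The whole list summed to 863, 866 and 748 in members and to 183, 204 and 229 in the crypt stem set. In the mid villus set it summed to 1090, 1078 and 1037. Pooled over members, these genes thus reached high levels where fat absorption genes were still low. Reg3b was uneven, with medians over single members of 250.5, 169 and 198, and 1 member in 4 was below 67.7, 52.4 and 76.6. Cells with at least 4 T cell markers held 123, 145 and 124 UMIs per 10000 of Reg3b. Of 17 genes of the list, 1, Duoxa2, was 2-fold higher than in the other eligible cells and 0 were lower, and these other cells include the villus.

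Of 4 counted keratins, 0 were past 2-fold against the other eligible cells, where 0.153% of all genes counted were higher and 2.86% lower. Krt8, a partner of Krt19 in keratin filaments, lay at 44.0, 38.5 and 33.7 UMIs per 10000 in members against 11.2, 10.8 and 10.5 in the crypt stem set and 30.1, 31.3 and 28.4 in the mid villus set. Krt20, a keratin of mature cells, was still at 4.28, 3.86 and 2.87, against 8.38, 7.67 and 6.36 in the mid villus set. In the list of aldo-keto and retinoid genes, 2 of 7 were 2-fold lower and 0 higher. These were Rbp2, the abundant retinol binding protein of enterocytes, at 12.7, 19.9 and 19.6 in members against 112, 105 and 109 in the mid villus set, and the dehydrogenase Rdh7.

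About 1 member in 5 carried RNA of mitosis genes. After thinning to 1000 UMIs, 2 or more of 20 mitosis genes were detected in 51 of 250 members (20.4%, 15.6 to 25.9), in 31 of 176 (17.6%, 12.3 to 24.1) and in 78 of 330 (23.6%, 19.2 to 28.6). The share was 21.3%, 21.3% and 17.3% in the other eligible cells. It was 41.2%, 47.2% and 39.7% in the crypt stem set and 1.2%, 0% and 0.909% in the mid villus set, whose medians were 6889, 5703 and 3245 UMIs. In B + A 0, 0 of 176 mid villus cells allowed a share of up to 2.07%. The limit cut a range rather than a type, since 41, 40 and 71 members had exactly 1 of these genes and 24, 13 and 38 exactly 2. Without thinning, the share of members was 60.0%, 61.9% and 50.3%.

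The members with mitosis genes differed from the other members in which defining genes they carried. Rbp7 lay at 1.37 (1.09 to 1.70), 1.83 (1.35 to 2.42) and 1.88 (1.49 to 2.34) UMIs per 10000 in them, against 1.14 (0.996 to 1.30), 0.977 (0.803 to 1.18) and 1.01 (0.840 to 1.21) in the other members. Gsdmc2 lay at 1.39, 0.989 and 1.21, against 1.62, 1.39 and 1.29. Gsdmc4 lay at 0.743, 0.343 and 0.333, against 0.898, 0.808 and 0.671. Akr1c19 lay at 1.99, 1.45 and 0.999, against 2.27, 1.97 and 1.64. Rbp7 was thus higher and Gsdmc2, Gsdmc4 and Akr1c19 lower in the members with mitosis genes in all 3 libraries. The intervals of Rbp7 were apart in both busulfan libraries and overlapped in AOS 0. Those of Gsdmc4 and of Akr1c19 each overlapped in 2 of 3 libraries, and those of Gsdmc2 in all 3. All of these genes entered the choice of the members, so a member low in one had to be high in another.

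Some genes outside the choice also differed between members with and without mitosis genes, Fabp6 the most among those given here. Reg3b lay at 193, 131 and 167 UMIs per 10000 in members with mitosis genes, against 414, 416 and 334 in the other members. Fabp1, a fatty acid binding protein, lay at 4.22, 7.65 and 6.13, against 8.08, 14.3 and 13.5. Fabp6, the ileal bile acid binding protein, lay at 31.1, 9.10 and 7.49, against 98.2, 74.3 and 63.3. In contrast, Klf5 lay at 3.33, 4.07 and 3.35 against 3.34, 3.08 and 2.99, and Pycard at 34.5, 29.1 and 28.3 against 31.0, 26.3 and 26.2. The members with mitosis genes had more UMIs, with medians of 10167, 8562 and 5079.5 against 8493, 6833 and 3924.5.

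**Figure D4:**
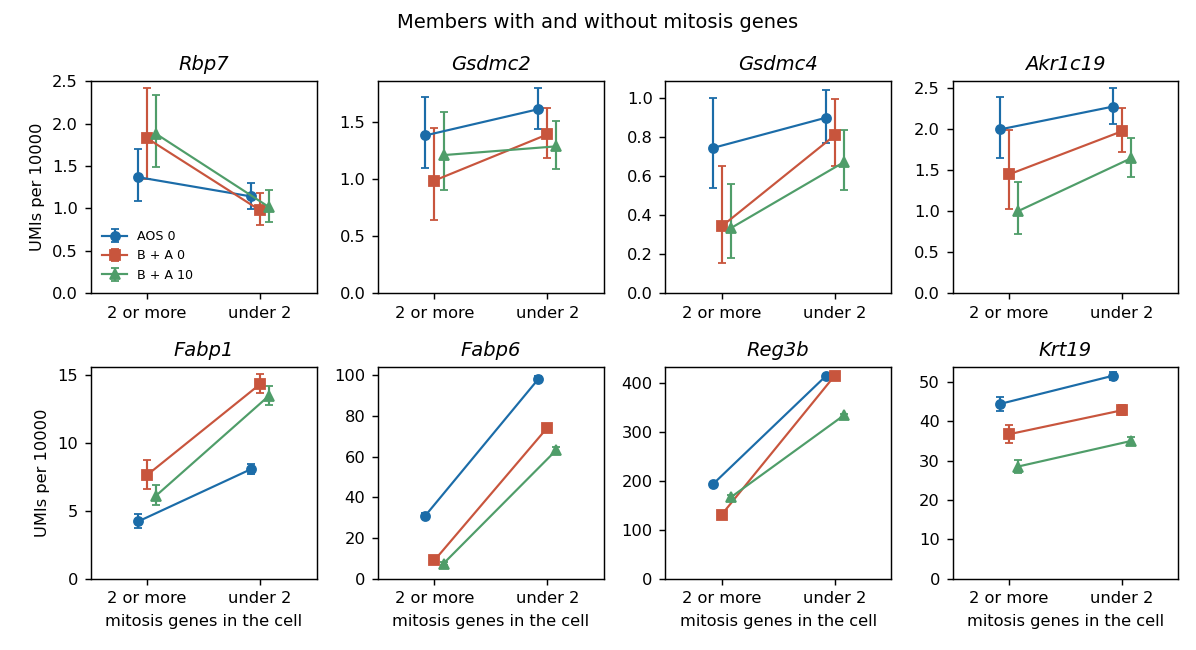
Levels in UMIs per 10000 (y axis from 0, each panel with its own scale) of 8 genes in members with 2 or more and with under 2 mitosis genes after thinning (x axis), with a line per library and exact 95% Poisson intervals for counting error. Reg3b, Fabp1, Fabp6, Gsdmc2, Gsdmc4, Akr1c19 and Krt19 were lower and Rbp7 was higher in members with mitosis genes in the 3 libraries.

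Fabp6, which enterocytes of the ileum make, was uneven among members. Its median over single members was 7.37, 7.13 and 6.41 UMIs per 10000, while 1 member in 10 was above 268, 207 and 178 and the highest reached 757, 666 and 626. Its summed level was 82.5, 62.0 and 48.5, well above the median member. The regions of the small intestine were not separated in the libraries.

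Between the libraries, the genes of the choice differed by less than 1.5-fold, the size used to count a gene. Of the 6 genes, 0 were past 1.5-fold in B + A 0 against AOS 0, 0 of the 5 with enough UMIs in B + A 10 against B + A 0, and 0 of 6 in B + A 10 against AOS 0. Over all genes counted, 2.36%, 0.766% and 4.28% were higher in these comparisons and 0.966%, 0.975% and 3.46% lower. Akr1c19, Krt19 and Gsdmc4 were lower in B + A 10 than in AOS 0 by close to 1.5-fold. The median log2 ratio of the 6 genes there was -0.43 in members and -0.56 in the other eligible cells. Because each library contributed its own top 8%, these levels could not show how many such cells a library held. Krt19 had log2 ratios of -0.26, -0.32 and -0.58 in these comparisons, and the other eligible cells had -0.27, -0.23 and -0.50. Dmbt1 had 0.11, 0.15 and 0.26, and the other eligible cells had -0.10, -0.09 and -0.19. The score used both genes, so these ratios are a description.

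Of 1864 genes with at least 300 UMIs in the members of AOS 0 and B + A 0, 44 (2.36%) were 1.5-fold or more higher in B + A 0 and 18 (0.966%) were lower. Gstp1, a glutathione transferase that can conjugate alkylating agents, lay at 0.637 UMIs per 10000 in members of AOS 0 and at 2.44 in those of B + A 0. Its log2 ratio was 1.94 (1.66 to 2.22), and 1.96 in the other eligible cells. Reg1, a secreted lectin, lay at 3.97 and 10.9, with a log2 ratio of 1.46 in members and 0.21 in the others. Of its 1004 and 1518 UMIs in these members, 169 and 142 lay in a single cell. S100g, an intracellular calcium carrier of the duodenum, had 219 and 444 UMIs, of which 37 and 109 lay in 1 cell, and a log2 ratio of 1.88, which was 0.81 with thinned scoring.

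Fat absorption genes were among the lists with many genes higher in members of B + A 0. Of 12 counted, 6 were past 1.5-fold higher and 0 lower, with a median log2 ratio of 0.52 in members and 0.04 in the other eligible cells, beside -0.05 over all genes in members. Apoa1, an apolipoprotein, lay at 5.75, 14.0 and 14.3 UMIs per 10000 in members of the 3 libraries. Apoa4 lay at 1.40, 3.42 and 3.98, Apoc3 at 0.708, 1.88 and 2.12, and Fabp1 at 7.18, 13.1 and 11.5. Apoa1 in the other eligible cells was at 65.0, 68.0 and 73.6, so the difference was seen where the gene was low. It was also seen at the crypt end of the order, where Apoa1 lay at 3.43, 9.19 and 8.99 in bin 1, and in the crypt stem set at 8.83, 13.7 and 13.0. In cells with at least 4 T cell markers, which held much RNA of epithelial cells, Apoa1 was at 32.1, 28.0 and 34.1. Free RNA of villus cells in the droplets and RNA made by the members could not be told apart.

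Paneth and goblet genes also differed between the libraries. The summed level of Paneth markers in members was 20.1, 50.6 and 29.7 UMIs per 10000, and 24.2, 53.4 and 39.0 in the other eligible cells. Goblet markers summed to 37.4, 82.1 and 67.9 in members and to 67.6, 102 and 146 in the others. T cell markers summed to 4.47, 7.03 and 7.91 in members and to 9.77, 11.9 and 18.1 in the others. In B + A 0 against AOS 0, 5 of 5 counted Paneth markers and 7 of 8 goblet markers were past 1.5-fold higher in members. Over all genes counted, 2.36% were. Among the 10 genes with the largest ratios of B + A 0 to AOS 0 were Lyz1, Itln1 and Ang4 of Paneth cells and Fcgbp of goblet cells, and 3 defensin genes. Lyz1 lay at 1.57, 4.62 and 2.06 in members and at 1.97, 5.09 and 2.52 in the others, and Itln1 had a log2 ratio of 1.46 against 1.23. The part of these cells' free RNA in the counts of members was not tested.

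Among the lower genes, St6galnac1, a sialyltransferase that modifies mucins, had 296, 4 and 1 UMIs in members. Its level in the other eligible cells was 0.430, 0.00703 and 0, so the difference was also seen outside the members. Gcg, the proglucagon gene of enteroendocrine cells, had 420 UMIs in AOS 0, of which 325 lay in 1 cell, and 6 in each of B + A 0 and B + A 10. Ifi27l2b, an interferon inducible gene, lay at 5.44, 2.95 and 12.3 UMIs per 10000. Cdx1, a homeobox factor of the intestine, lay at 1.53 and 0.900, with a log2 ratio of -0.77 (-1.07 to -0.47) in members and -0.21 in the others. It was -0.40 with thinned scoring, -0.55 in the top 16% and -0.54 without Gsdmc2 and Gsdmc4, which is under 1.5-fold. The other genes were H2-Aa and Cd74 of antigen presentation, Msmo1 and Hmgcs1 of cholesterol synthesis, S100a11 and Elf1, with log2 ratios between -0.91 and -0.72. Of these, Elf1 had -0.12 with thinned scoring, H2-Aa -0.48 without Dmbt1 and Krt19 and Cd74 -0.54 in the top 4%.

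**Figure D5:**
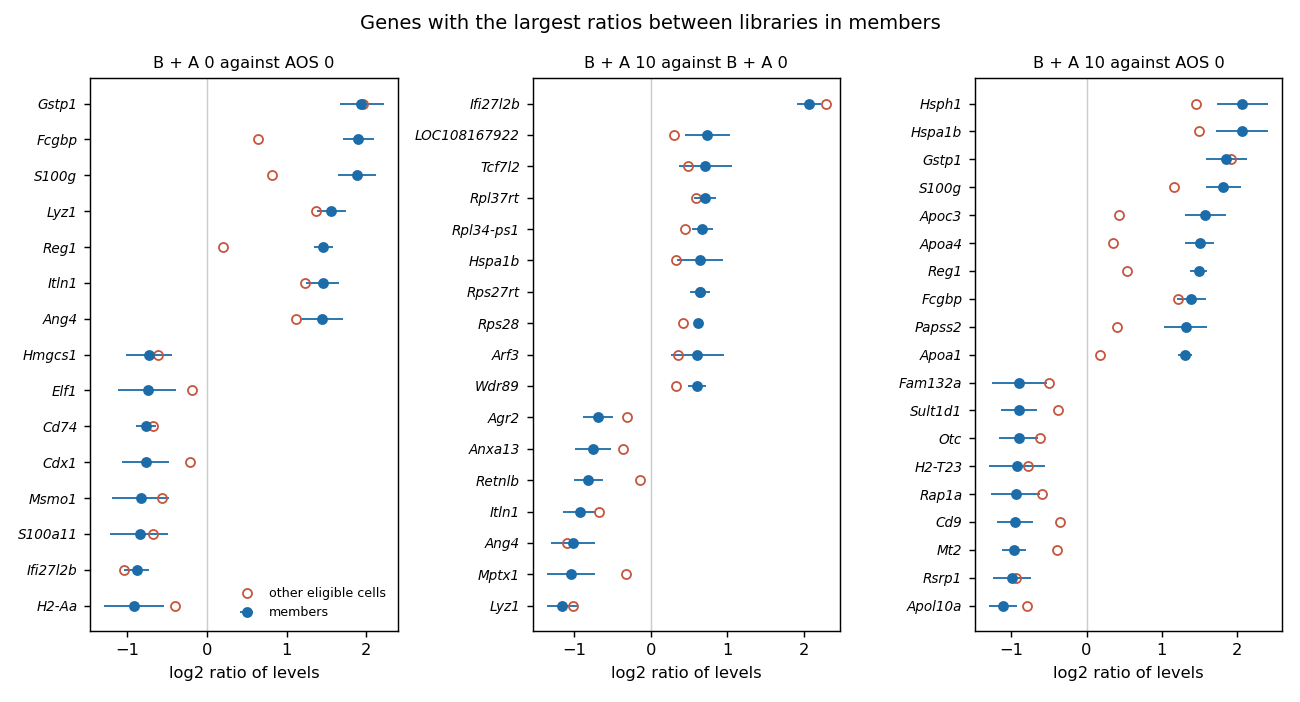
Log2 ratio of levels (x axis) between libraries in members (filled points, with 95% intervals for counting error) and in the other eligible cells (open points) for the genes (y axis) with the largest and smallest ratios in each of 3 comparisons. Defensin genes, Gcg and St6galnac1 are not drawn; Gstp1 and Ifi27l2b had much the same ratios in members and others, while Reg1 and Apoa1 had larger ones in members.

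Fewer genes differed between both busulfan libraries. Of 1436 genes, 11 (0.766%) were 1.5-fold or more higher in B + A 10 than in B + A 0 and 14 (0.975%) were lower. The first of the higher genes was Ifi27l2b, with a log2 ratio of 2.06 (1.91 to 2.22) in members and 2.28 in the other eligible cells. Tcf7l2, the factor through which Wnt signals act in the crypt, lay at 0.792 and 1.29 UMIs per 10000, with a log2 ratio of 0.71 (0.37 to 1.06) in members and 0.48 in the others. It was 0.46 in the top 16%, under 1.5-fold. Several were ribosomal genes or copies of them (Rps28, Rps27rt, Rpl37rt and Rpl34-ps1), whose reads can be shared with near-identical genes. Among the 10 lowest were Lyz1, Itln1, Ang4, Mptx1, Retnlb and Agr2 of Paneth and goblet cells. Anxa13, an annexin of enterocytes, lay at 2.74 and 1.62, with a log2 ratio of -0.75 in members, -0.36 in the others and -0.52 in members chosen with thinned scoring. Retnlb at -0.81 was -0.14 in the top 4%, Mptx1 at -1.04 was -0.58 without Dmbt1 and Krt19, and Agr2 at -0.69 was -0.53 in the top 16%. The fat absorption list had 0 of 12 genes past 1.5-fold in either direction.

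Against AOS 0, members of B + A 10 had 84 of 1964 genes (4.28%) higher and 68 (3.46%) lower by 1.5-fold or more. This comparison shares its AOS 0 library with the first and its B + A 10 library with the second. Hsph1 and Hspa1b, chaperones of the heat shock response, led with log2 ratios of 2.08 (1.74 to 2.42) and 2.06 (1.73 to 2.41). Hspa1b lay at 0.395, 1.06 and 1.65 UMIs per 10000, and its log2 ratio in the other eligible cells was 1.5. Heat shock and immediate early genes past 1.5-fold higher were 2 of 7 counted. Papss2, an enzyme that supplies activated sulfate, lay at 0.676, 1.56 and 1.69, with a log2 ratio of 1.32 that was 0.69 with thinned scoring. Of 13 fat absorption genes 6 were higher, and Apoa1 at 1.31 was 0.74 with thinned scoring and 2.10 without Dmbt1 and Krt19. Among the lowest were Apol10a at -1.11, Mt2, a metallothionein, at -0.96 and Cd9, a tetraspanin of the cell membrane, at -0.95, where the other eligible cells had -0.79, -0.39 and -0.35.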

How the data were processed

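Small intestinal cells of 3 libraries were measured by 10x Genomics 3′ v2 single-cell RNA sequencing. The authors aligned and counted the reads with Cell Ranger 2.2.0 on mm10 with a forced number of cells, removed cells with fewer than 200 genes and genes in fewer than 3 cells, and normalized in Seurat. The deposited values are the natural log of 1 plus UMIs per 10000 of each cell, in 13891 genes and 12653 cells. All 24333763 values above 0 came out as whole UMIs within 0.01 (100%), so levels are sums of recovered UMIs per 10000, with exact Poisson or binomial 95% intervals for counting error. Thinning read all shares at 1000 UMIs per cell. Members were chosen on unthinned values, so their thinned shares could still depend on depth through the choice. The members and the gene lists were chosen with earlier results of these data known. Named genes are the 6 defining genes, listed genes with the highest levels or largest ratios, the 20 highest and 10 lowest ratios against the other eligible cells, and the 10 highest and 10 lowest between libraries, with defensins not described because of near-identical copies. The 10 genes that correlated most with the score are given in the closing section. Genes needed 300 UMIs, 2-fold against other cells and 1.5-fold between libraries. Doublets were kept, since the automatic threshold of Scrublet (30 components) marked only 7, 4 and 7 cells, and the cells with the top 5% of scores were left out as an alternative. Simulated counts checked only how the ratios and intervals were computed. They followed the same counting model as the intervals and had no clumping of RNA in single cells. Gene positions are from GENCODE vM21. The work was done in Python 3.11.15 with scanpy 1.11.5, scipy 1.17.1 and numpy 2.4.6, and drawn with matplotlib 3.10.9.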

Additional observations from a re-analysis of the deposited data

How the results depend on the processing

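No paired analysis was possible because each group was 1 library. The alternatives were fixed with the members, except that the highest member cell of each gene was left out after seeing the data. Members depended on depth: a score from thinned cells kept 375 of 756 (49.6%), a score without Gsdmc2 and Gsdmc4 70.9%, and a score without Dmbt1 and Krt19 68.0%. Against the other eligible cells, 5 genes were higher and 93 lower with the thinned score, 5 and 53 without Dmbt1 and Krt19, 13 were higher with means of per-cell values, and 265 were lower at 100 UMIs. At 100 UMIs the genes higher and lower between libraries were 112 and 125 (B + A 0 against AOS 0), 68 and 63 (B + A 10 against B + A 0) and 222 and 235 (B + A 10 against AOS 0). For B + A 0 against AOS 0, 7 were lower in the top 4%, 36 in the top 16% and 29 with 8% of all cells. For B + A 10 against B + A 0, 19 were higher with 8% of all cells, 7 with the thinned score, 7 without Gsdmc2 and Gsdmc4 and 17 without Dmbt1 and Krt19, and 8 were lower in the top 4%. For B + A 10 against AOS 0, 53 were higher and 36 lower in the top 4%, and 128 and 103 in the top 16%. The median rank was 41.8 in AOS 0 without Gsdmc2 and Gsdmc4, 42.5 in AOS 0 with fat absorption and stem cell genes only, while leaving out Dmbt1 and Krt19 gave 45.4 (B + A 0) and 42.4 (B + A 10). Without thinning, Gsdmc2 was detected in 66.4%, 54.5% and 40.3% of members, Gsdmc4 in 44.0%, 35.8% and 20.9%, and Akr1c19 in 83.6%, 75% and 49.1%. Of 910 alternatives for ratios of named genes, 756 stayed within their intervals, 153 moved and 1 turned direction. The 1 was Nts, low in members, with a log2 ratio of 1.52 with the thinned score. Of the 756, 90 came from the limit of 100 UMIs, which cannot change a ratio. Another 82 came from totals without ribosomal, mitochondrial and defensin genes, where 0 moved. By contrast, the thinned score moved 36 and left 48, and leaving out Dmbt1 and Krt19 moved 33 and left 56. Gcg rested on 1 cell, and without it the log2 ratios to AOS 0 were -3.38 (B + A 0) and -3.57 (B + A 10). The causes were not tested.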

Other observations

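Some groups of genes outside the comparisons described members further. All 22 genes of mitochondrial energy metabolism were within 2-fold of the other eligible cells, and summed to 294, 293 and 286 UMIs per 10000 in members against 209, 208 and 204 in the crypt stem set and 334, 318 and 312 in the mid villus set. Ribosomal protein genes went the other way, with 1635, 1695 and 1869.6 in members, 2714, 2785 and 2857 in the crypt stem set and 824, 854 and 883 in the mid villus set. The glutathione gene Gsr lay at 6.83, 6.29 and 7.29 in members, 2.45, 2.74 and 2.99 in the crypt stem set and 6.18, 5.99 and 6.88 in the mid villus set. Nr1h4, the bile acid receptor, lay at 0.791, 0.713 and 0.556 in members, 0.143, 0.121 and 0.137 in the crypt stem set and 0.551, 0.605 and 0.475 in the mid villus set. Guca2b, which encodes uroguanylin, was still at 1.91, 3.42 and 3.45, against 18.0, 20.5 and 24.5 in the mid villus set.

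Of 18 genes that p53 activates, 8 could be counted against the other eligible cells and 0 were past 2-fold. Over all genes counted, 0.153% were higher and 2.86% lower. Between B + A 0 and AOS 0, 3 could be counted in members and 0 were past 1.5-fold, with a median log2 ratio of -0.25, beside -0.30 in the other eligible cells. Over all genes counted there, 2.36% were higher and 0.966% lower. With so few genes, these counts could not show whether the list differed from other genes. Within members no gene outside the choice followed the score closely: the highest correlations were those of Mgat4c, Prdx1, Tspan8, Lgals2, Lgals4, Magoh, Mgst1, Fam132a, Oat and Tram1, and among them the highest r in a library was 0.26, for Lgals2 in B + A 10. These are correlations across cells of 1 library, which share its depth, and are weak.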
